A study of Mus musculus with 9 samples.

Results

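A group of 9 genes that regulate or mark basal cells and stem cells of the mouse mammary gland was followed through 3 kinds of sample: Trp63, Sox10, Snai2, Id4, Bcl11b, Sox9, Procr, Tspan8 and Inpp5d. They were taken by symbol as 9 of the 18194 genes measured, through the 27 probe sets annotated to 1 of these symbols alone, of 34958 probe sets with a single symbol on the array. The rule used symbols and no measured value, but the genes were chosen with earlier results of these data known. The first group, LD cells (labelled Lum), were luminal differentiated cells, sorted from the gland as EpCAM-high, CD49f-low and CD61-negative among cells negative for a cocktail of lineage antibodies, and measured fresh. The second, organoids from MaSCs (labelled Org), grew from the sorted MaSC-enriched fraction, which was EpCAM-low, CD49f-high and CD61-positive. The third, organoids from yMaSCs (labelled yOrg), grew from LD cells converted by a lentiviral, doxycycline-inducible YAP (wild-type, by the general statement of the methods) and were kept as organoids after doxycycline was withdrawn. Both kinds of organoid shared one culture, Matrigel under a medium with EGF, bFGF, heparin, noggin and R-Spondin1, which the LD cells never saw, so that the effect of culture and that of cell identity cannot be told apart in a comparison with LD cells. Each group had 3 biological samples lettered A, B and C. By the methods' general statement the cells came from young adult virgin C57BL/6J mice, and the sources used here do not give how many mice stood behind an array.

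The mammary duct has an inner layer of luminal cells, which sense hormones and make milk, and an outer basal layer of contractile myoepithelial cells. Transplantation into a cleared fat pad places most of the gland-forming stem cell activity in the basal layer. Trp63 encodes p63, the transcription factor on which basal cells of stratified and glandular epithelia depend. Sox10 and Sox9 encode related high-mobility-group factors, and Snai2 encodes Slug, a zinc finger repressor of the Snail family. Id4 encodes a helix-loop-helix protein that lacks a DNA-binding region and so blocks its partners, and Bcl11b encodes a zinc finger factor best known from T cells. Procr and Tspan8 encode surface proteins, the protein C receptor and a tetraspanin, that have been used to sort stem cell-enriched fractions. Inpp5d encodes SHIP, an inositol phosphatase found mostly in blood cells.

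Upstream sequence is shown first for Id4, one of the genes that rose in organoids, and for Inpp5d, one of those that fell. These were the 2 of the 5 regulators in the RefSeq promoter table whose window lay outside the annotated gene. The windows are the 250 bases before the start in GRCm38.p6, written 5′ to 3′ on the plus strand, on which both genes lie, at chr13:48260866-48261115 for Id4 and chr1:87620062-87620311 for Inpp5d. Capitals mark matches, on either strand, to the letters CATTCC bound by TEAD factors, to ACAAAG or AACAAT bound by Sox factors, and to the E-box CANNTG, which includes the Snail-type CAGGTG.
Id4: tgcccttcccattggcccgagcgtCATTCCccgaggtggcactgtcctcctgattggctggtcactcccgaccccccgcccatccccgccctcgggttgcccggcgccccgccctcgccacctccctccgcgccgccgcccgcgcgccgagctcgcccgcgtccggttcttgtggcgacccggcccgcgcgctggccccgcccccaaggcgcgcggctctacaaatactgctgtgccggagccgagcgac
Inpp5d: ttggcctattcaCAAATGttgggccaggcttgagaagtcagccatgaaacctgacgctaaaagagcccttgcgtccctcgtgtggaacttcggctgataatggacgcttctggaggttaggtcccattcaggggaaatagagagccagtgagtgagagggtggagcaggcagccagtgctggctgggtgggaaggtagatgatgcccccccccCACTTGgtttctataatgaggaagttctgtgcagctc
The Id4 window held 1 TEAD-type match, at position -226 from the start, and no Sox-type match or E-box. It also held 5 matches to the GC box GGGCGG, on either strand. The Inpp5d window held 2 E-boxes, at -238 and -37, neither of the Snail type, and no TEAD-type or Sox-type match. Of 32851 windows of the same length, 12.6% held the TEAD letters, 24.0% the Sox letters, 66.2% an E-box, 17.2% the Snail-type E-box and 32.7% the GC box. G and C made up 75.6% of the Id4 window and 54.4% of that of Inpp5d, against a median of 52.4% over all windows. The windows of the other 3 genes, which lay inside the annotated gene in part or whole, held 1 E-box for Procr, 1 Sox-type match for Tspan8 and none of these letters for Bcl11b. The matches describe the letters and not binding.

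All values below are log2 intensities made by the authors with RMA, which corrects background, gives the arrays 1 distribution and summarises the probes of a probe set. A gene is represented by its probe set of highest mean over the 9 arrays. Differences come from limma, which fitted a mean for each group on all 9 arrays and shared the spread across probe sets. A difference was called where its p, adjusted by Benjamini and Hochberg's method across all 34958 probe sets, was under 0.05. The lower quartile of an array, where values are near background, lay between 3.47 and 3.59. A lower value in bulk RNA can reflect fewer cells of a type or less RNA per cell, which cannot be told apart here.

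Against LD cells, organoids from MaSCs were higher in Trp63, Sox10, Snai2, Id4, Bcl11b and Tspan8 and lower in Sox9, Procr and Inpp5d, so that all 9 genes were called, 6 higher and 3 lower. Organoids from yMaSCs were called higher in 5 of the 9 and lower in 2, with Procr and Tspan8 missing the threshold. Both organoid comparisons used the same LD arrays and so are not independent of each other. As background, 22.0% of all 18194 genes were called higher and 15.0% lower in organoids from MaSCs, and 21.5% higher and 14.1% lower in organoids from yMaSCs. The median size of the difference over the 9 genes was 2.35 and 2.28 log2, against 0.32 and 0.31 over all genes. Because the 9 genes were chosen with earlier results of these data known, their contrast with all genes is a description and not a test. Every organoid array lay above every LD array in 5 of the genes (Trp63, Sox10, Snai2, Id4 and Bcl11b) and below every LD array in 3 (Sox9, Procr and Inpp5d), with overlap in Tspan8. Over all genes, 23.3% had every organoid array above every LD array and 17.1% below.

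**Figure D1:**
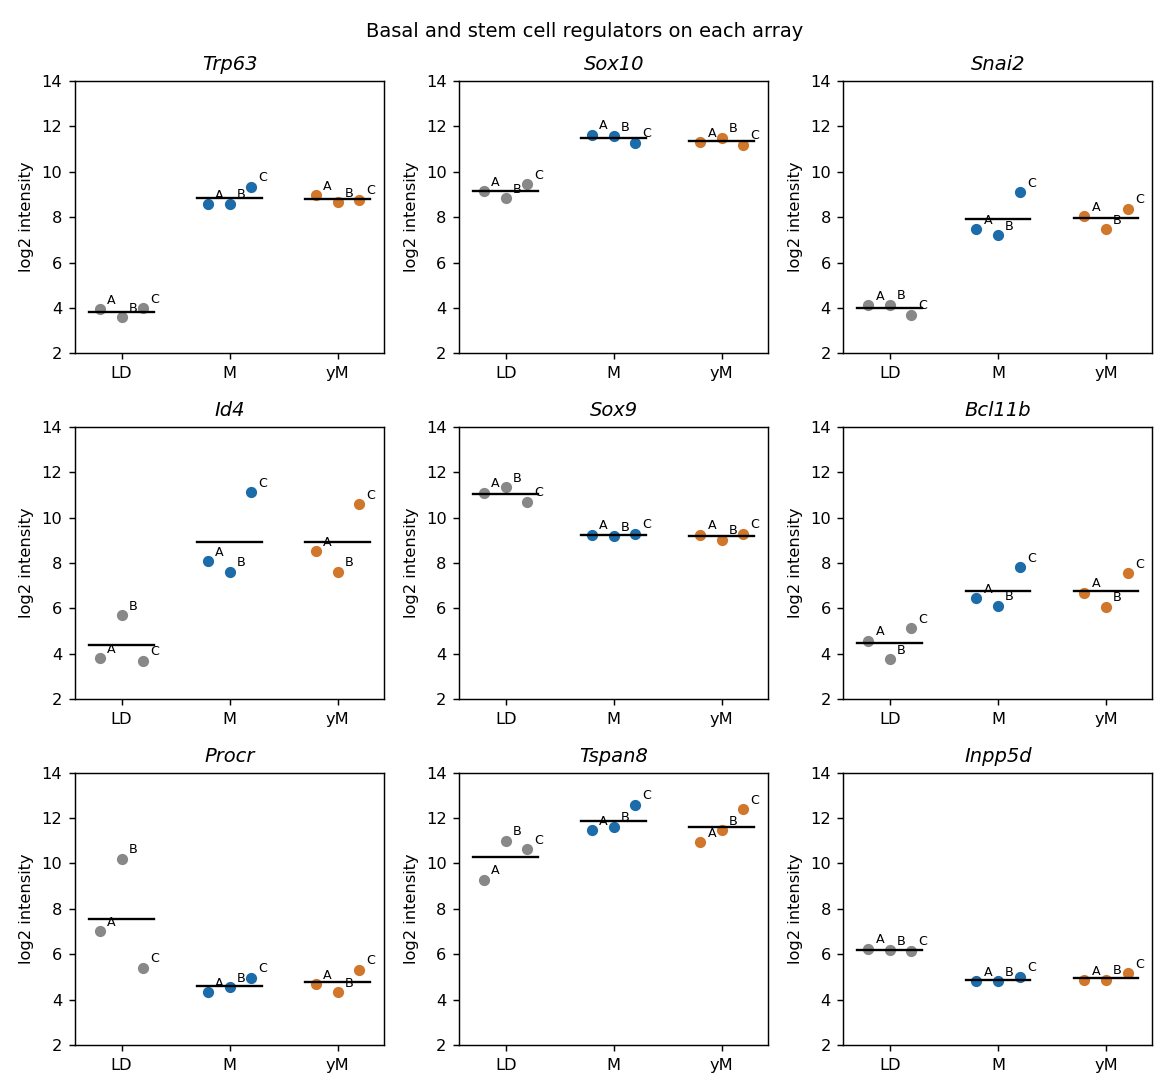
Log2 intensity (y axis) of the 9 genes on each array. LD are luminal differentiated cells, M organoids from MaSCs and yM organoids from yMaSCs, points are arrays lettered A to C, and lines are means of 3 arrays. Trp63 sat between 3.60 and 3.98 in LD cells and between 8.57 and 9.34 in organoids, while Sox9, Procr and Inpp5d were lower in all organoids than in any LD array.

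Trp63 (chr16:25683763-25892088) read 3.94, 3.60 and 3.98 in LD cells A, B and C, close to background. It read 8.57, 8.59 and 9.34 in organoids from MaSCs and 8.96, 8.66 and 8.77 in organoids from yMaSCs. The gene thus went from a level near the lower quartile in LD cells to a bright signal in all 6 organoid arrays, with no overlap. Trp63 rose by 4.99 log2 (SE 0.21, 31.9-fold, limma adjusted p = 2.94e-06) in organoids from MaSCs and by 4.96 log2 (SE 0.21, 31.1-fold, adjusted p = 3.33e-06) in organoids from yMaSCs. As the LD level lies near background, these folds may understate the change. The size depended on the probe set. Of the other 3 probe sets of Trp63, those with means of 4.38 and 3.31 in LD cells rose by 0.87 and 1.61 log2 in organoids from MaSCs and by 1.21 and 1.73 log2 in organoids from yMaSCs. The last differed by 0.64 and 0.60 log2, with adjusted p of 0.0785 and 0.0998, and its groups overlapped. Trp63 makes several isoforms, and which of them each probe set reads was not examined.

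Sox10 (chr15:79154913-79164490) was already well above background in LD cells, at 9.14, 8.84 and 9.45. It read 11.63, 11.56 and 11.28 in organoids from MaSCs and 11.31, 11.51 and 11.20 in organoids from yMaSCs. Both kinds of organoid stood about equally far above LD cells, and arrays within a group differed little. The increase was 2.35 log2 (SE 0.17, 5.09-fold, limma adjusted p = 2.33e-05) and 2.20 log2 (SE 0.17, 4.58-fold, adjusted p = 3.39e-05). All 3 probe sets of Sox10 were called in both comparisons, with differences of 1.86 to 2.35 log2 in organoids from MaSCs and 1.75 to 2.25 log2 in organoids from yMaSCs. Sox10 is also a factor of Schwann and neural crest cells. Of 8 measured markers of those cells, 2 were higher and 3 lower in organoids from MaSCs, and 1 was higher and 3 lower in organoids from yMaSCs, with medians of -0.33 and -0.34 log2. Cdh19, a cadherin of Schwann cell precursors, rose from 2.93, 3.83 and 3.22 in LD cells to between 7.35 and 8.55 in the organoids. Mbp, a myelin protein, fell by 1.58 and 1.62 log2, and Foxd3, a neural crest factor, stayed under the lower quartile in every organoid array. The part of such cells in the Sox10 values was not tested.

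Snai2 (chr16:14705852-14709395) read 4.12, 4.15 and 3.70 in LD cells. It read 7.46, 7.21 and 9.09 in organoids from MaSCs and 8.03, 7.46 and 8.37 in organoids from yMaSCs. The groups did not overlap, and the letter C array was the highest of each kind of organoid. Snai2 rose by 3.93 log2 (SE 0.45, 15.2-fold, limma adjusted p = 0.000226) and by 3.96 log2 (SE 0.45, 15.6-fold, adjusted p = 0.000229). Here too the LD level was near background, and the folds may understate the change. The name of this probe set ends in x, which marks probes that can also match other transcripts. The other Snai2 probe set, without that mark, was dimmer and rose by 1.90 and 1.88 log2.

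Id4 (chr13:48261116-48266028) read 3.80, 5.69 and 3.70 in LD cells, so that LD cells B stood apart. It read 8.07, 7.61 and 11.13 in organoids from MaSCs and 8.52, 7.61 and 10.58 in organoids from yMaSCs. In both kinds of organoid the letter C array was far the highest, yet even the lowest organoid array was above LD cells B. The increase was 4.54 log2 (95% interval 2.15 to 6.93, 23.3-fold, limma adjusted p = 0.00900) and 4.51 log2 (2.12 to 6.89, 22.7-fold, adjusted p = 0.00963). These are the widest intervals among the genes that rose, and with LD cells A and C near background the folds may understate the change. A further Id4 probe set rose by 3.93 and 3.89 log2. The third differed by 2.35 and 2.36 log2 with adjusted p of 0.0930 and 0.0936, and LD cells B, at 6.58, lay among its organoid values.

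Bcl11b (chr12:107910403-108004145) read 4.57, 3.76 and 5.13 in LD cells. It read 6.44, 6.11 and 7.81 in organoids from MaSCs and 6.69, 6.07 and 7.55 in organoids from yMaSCs. The organoids were above all LD cells, with letter C the highest of each group. Bcl11b rose by 2.30 log2 (95% interval 1.09 to 3.51, limma adjusted p = 0.00917) and by 2.28 log2 (1.07 to 3.50, adjusted p = 0.00982). Of its other 3 probe sets, 1 rose by 1.34 and 1.41 log2. The remaining pair differed by 0.82 and 0.60 log2 in organoids from MaSCs and by 0.78 and 0.45 log2 in organoids from yMaSCs, without being called. Bcl11a, its close relative, read 6.29 to 6.74 on all 9 arrays and was not called.

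Sox9 (chr11:112782210-112787757) moved opposite to Sox10. It read 11.10, 11.33 and 10.70 in LD cells, 9.25, 9.18 and 9.29 in organoids from MaSCs, and 9.25, 9.02 and 9.29 in organoids from yMaSCs. The organoids were lower than every LD array but still far above background. Sox9 fell by 1.80 log2 (SE 0.16, 3.49-fold, limma adjusted p = 5.84e-05) and by 1.86 log2 (SE 0.16, 3.62-fold, adjusted p = 5.38e-05). A further Sox9 probe set fell by 1.57 and 1.64 log2. The third, with means of 2.95 to 3.21 and so under the lower quartile in every group, differed by -0.26 and -0.24 log2 and was not called.

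Procr (chr2:155751125-155755478), measured by a single probe set, varied most among LD cells, at 7.02, 10.21 and 5.41. It read 4.33, 4.55 and 4.96 in organoids from MaSCs and 4.67, 4.31 and 5.32 in organoids from yMaSCs. All organoids were lower than all LD cells, though LD cells C, the lowest, were only just above the highest organoid array. The difference was -2.93 log2 (95% interval -5.17 to -0.70, limma adjusted p = 0.0452) in organoids from MaSCs and -2.78 log2 (-5.01 to -0.55, adjusted p = 0.0567) in organoids from yMaSCs. The size rested on LD cells B, without which it was -1.60 log2 (adjusted p = 0.0329) and -1.45 log2 (adjusted p = 0.0488). Without LD cells C it was -4.00 log2 (adjusted p = 0.00718) and -3.85 log2 (adjusted p = 0.00882). For organoids from MaSCs the adjusted p was 0.0562 with arrays blocked by letter. The probe set's name ends in s, which marks probes shared by several transcripts.

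Procr is also a gene of endothelial cells, and endothelial markers were higher in LD cells B than in the other LD arrays. Of 8 endothelial markers, 6 were at least 1 log2 higher in LD cells B than in LD cells A and C. None of the 8 was called by limma in either kind of organoid, although 2 had an unadjusted p under 0.05 in each, with median differences of -0.95 and -0.82 log2. Cldn5, an endothelial junction protein, read 3.95, 7.57 and 4.07 in LD cells A, B and C, and Emcn, an endothelial surface mucin, 2.90, 6.31 and 3.39. The markers' intensities, summed and then put on a log2 scale, ranged from 6.86 to 9.09 in LD cells, 6.76 to 6.81 in organoids from MaSCs and 6.78 to 6.81 in organoids from yMaSCs, with Cdh5, Tek, Emcn and Tie1 under the lower quartile in every organoid array. Fibroblast markers, of which 1 rose and 3 fell in both comparisons, were also highest in LD cells B, by at least 1 log2 in 5 of 8, with sums of 10.54, 12.49 and 11.11 in LD cells A, B and C. In organoids from MaSCs those sums ranged from 10.05 to 11.25 and in organoids from yMaSCs from 9.61 to 10.37, with Col3a1, a fibrillar collagen, under the lower quartile in every organoid array. Dcn, which was not called, was the brightest fibroblast marker on every array and weighs most in these sums. It read 10.08 to 12.10 in LD cells and 9.06 to 11.06 in organoids. How much of the Procr signal came from endothelial or fibroblast cells was not tested.

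**Figure D2:**
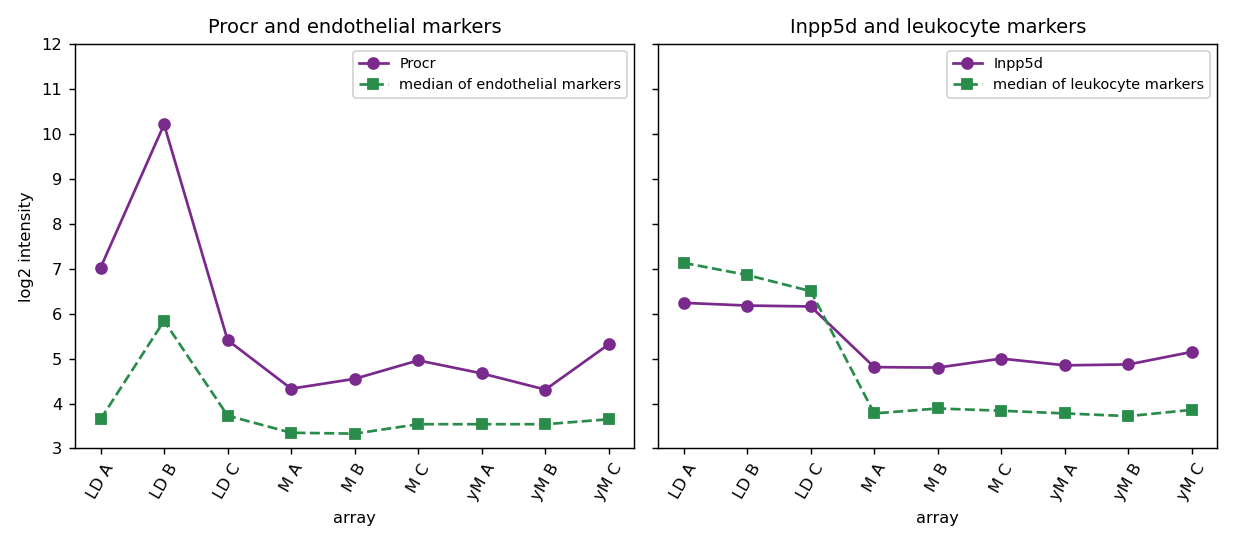
Log2 intensity (y axis) on each of the 9 arrays (x axis) of Procr with the median of 8 endothelial markers, and of Inpp5d with the median of 11 leukocyte markers. LD stands for LD cells, M for organoids from MaSCs and yM for those from yMaSCs. Procr and the endothelial median both peak in LD cells B, at 10.21 and 5.84, and Inpp5d and the leukocyte median are both higher in the 3 LD arrays than in the 6 organoid arrays.

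Tspan8 (chr10:115816817-115849893) was bright in all samples. It read 9.29, 11.00 and 10.62 in LD cells, 11.45, 11.62 and 12.58 in organoids from MaSCs, and 10.94, 11.45 and 12.38 in organoids from yMaSCs. LD cells B were above organoids from yMaSCs A, so that the groups overlapped. Tspan8 rose by 1.58 log2 (95% interval 0.41 to 2.75, limma adjusted p = 0.0407) in organoids from MaSCs. It differed by 1.29 log2 (0.11 to 2.46, adjusted p = 0.0866) in organoids from yMaSCs, and with arrays blocked by letter the adjusted p was 0.0138. That block pairs LD cells with organoids by letter. Their deviations from group means correlated at only 0.02, 0.021 and -0.065 for A, B and C. All 5 probe sets of Tspan8 rose in organoids from MaSCs, by 1.24 to 2.28 log2. In organoids from yMaSCs the 5 differed by 1.07 to 1.82 log2, and 2 of them were called. The value moved most with LD cells A, without which it was 1.07 log2 (adjusted p = 0.119) in organoids from MaSCs and 0.78 log2 (adjusted p = 0.246) in organoids from yMaSCs.

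Inpp5d (chr1:87620312-87720510) read 6.24, 6.18 and 6.16 in LD cells, 4.81, 4.80 and 5.00 in organoids from MaSCs, and 4.85, 4.87 and 5.15 in organoids from yMaSCs. The LD arrays lay close together, and every organoid array was below all of them. Inpp5d fell by 1.32 log2 (SE 0.11, 2.50-fold, limma adjusted p = 4.99e-05) and by 1.24 log2 (SE 0.11, 2.36-fold, adjusted p = 7.57e-05). Its other probe set fell by 0.42 and 0.48 log2, and which transcripts of Inpp5d each probe set reads was not examined. Markers of leukocytes, in which Inpp5d is widely used, fell alongside: 9 of 11 were called lower in both comparisons and none higher, with median differences of -1.96 and -1.99 log2. Ptprc, the pan-leukocyte surface phosphatase CD45, read 8.94, 8.49 and 8.17 in LD cells and 2.64 to 2.99 in organoids. The summed leukocyte markers, on a log2 scale, ranged from 10.56 to 11.09 in LD cells, 8.81 to 9.07 in organoids from MaSCs and 8.75 to 9.47 in organoids from yMaSCs, with Ptprc and Was under the lower quartile in every organoid array. In the organoids these sums rest mostly on Lcp1, which read 7.98 to 9.02 there and was not called. The lineage antibodies of the sort mark blood cells, and the part of leukocytes in the LD level of Inpp5d was not tested.

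**Figure D3:**
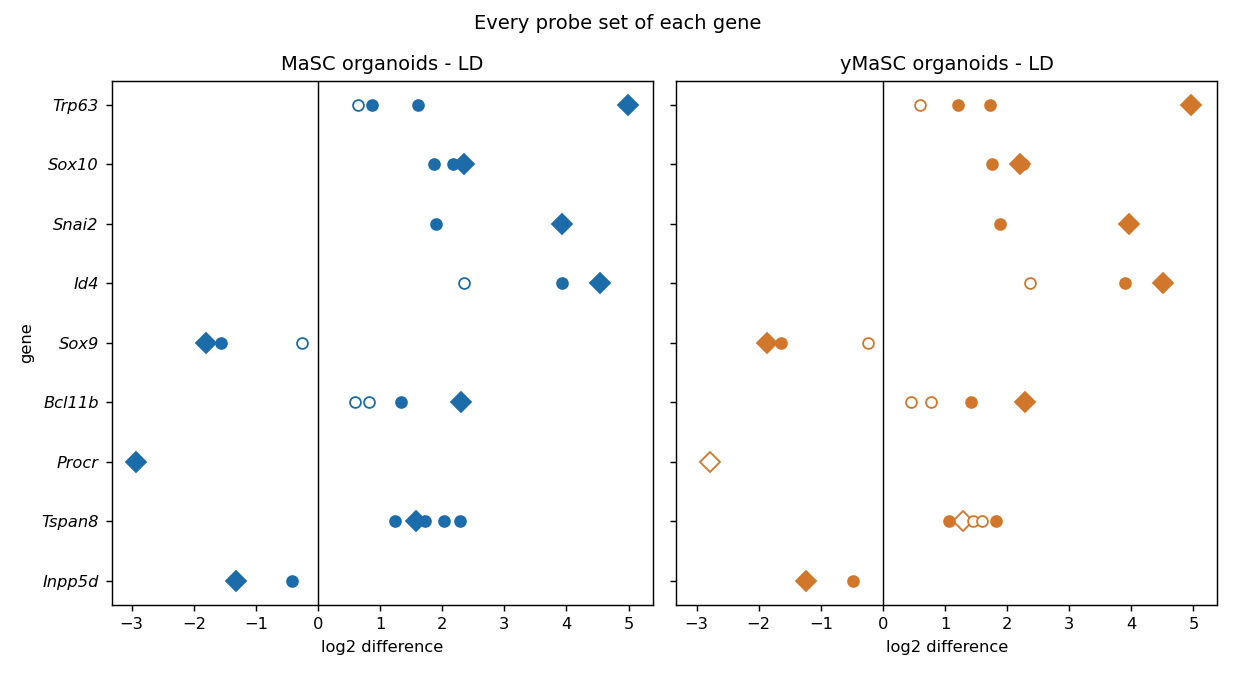
Log2 difference from LD cells (x axis) for each of the 27 probe sets of the 9 genes (y axis), in organoids from MaSCs on the left and organoids from yMaSCs on the right. Diamonds mark the probe set that represents a gene, circles its others, and filled symbols a limma adjusted p under 0.05. No probe set of a gene lies on the other side of 0 from the one that represents it.

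Counted by probe set, 17 of 27 were higher, 5 lower and 5 not called in organoids from MaSCs, and 14 were higher, 4 lower and 9 not called in organoids from yMaSCs. Over all 34958 probe sets, 19.9% were higher and 16.0% lower in organoids from MaSCs, and 19.4% higher and 15.4% lower in organoids from yMaSCs. The probe sets of a gene differed in size more than in direction, as the plot of every probe set shows: those of Trp63 ranged from 0.64 to 4.99 log2 in organoids from MaSCs, and those of Sox10 from 1.86 to 2.35 log2.

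The 2 kinds of organoid were then set against each other, which asks whether the YAP-converted cells grew into organoids with the same levels of these genes. None of the 9 genes or 27 probe sets was called by limma, none of the 9 had an unadjusted p under 0.05, and the smallest adjusted p over all probe sets was 1. Over all 18194 genes 0% were called, with 104 at an unadjusted p under 0.05. That is a smaller share than 0.05, the share expected where no gene differs. The count therefore does not show that the organoids match. The size of the difference had a median of 0.05 log2 over the 9 genes and 0.07 over all genes, and reached at most 0.29 log2, in Tspan8. A missed threshold does not show that the levels were equal, and the intervals say how large a difference could have been missed. For Trp63 the difference was -0.04 log2 with a 95% interval of -0.52 to 0.45, for Sox10 -0.15 (-0.54 to 0.24), for Sox9 -0.05 (-0.42 to 0.31) and for Inpp5d 0.09 (-0.17 to 0.35). In these 4 genes the interval stayed within 1 log2, as it did in 93.3% of all genes. It was wider for Snai2, at 0.03 (-1.0 to 1.07), for Bcl11b, at -0.02 (-1.23 to 1.20), and for Tspan8, at -0.29 (-1.47 to 0.88). The widest were those of Procr, at 0.15 (-2.08 to 2.39), and Id4, at -0.03 (-2.42 to 2.35). This fit shares its spread with LD cells, in which Procr had an SD of 2.44 log2 against 0.32 and 0.51 in the organoids, and leaves out the letters. Within letters A, B and C, organoids from yMaSCs minus those from MaSCs gave 0.45, 0.00 and -0.55 log2 for Id4 and 0.34, -0.24 and 0.36 log2 for Procr. In the organoids alone, blocked by letter, the 95% interval narrowed to -0.51 to 0.44 for Id4 and -0.20 to 0.51 for Procr, and it stayed within 1 log2 in all 9 genes. That of Tspan8, at -0.55 to -0.04, left out 0, but its limma adjusted p was 0.972. Tspan8 was lower in organoids from yMaSCs within each letter, by -0.51, -0.17 and -0.20 log2 for A, B and C. In the main fit its 5 probe sets differed by -0.46 to -0.17 log2 between the organoids, all in the same direction and none called.

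**Figure D4:**
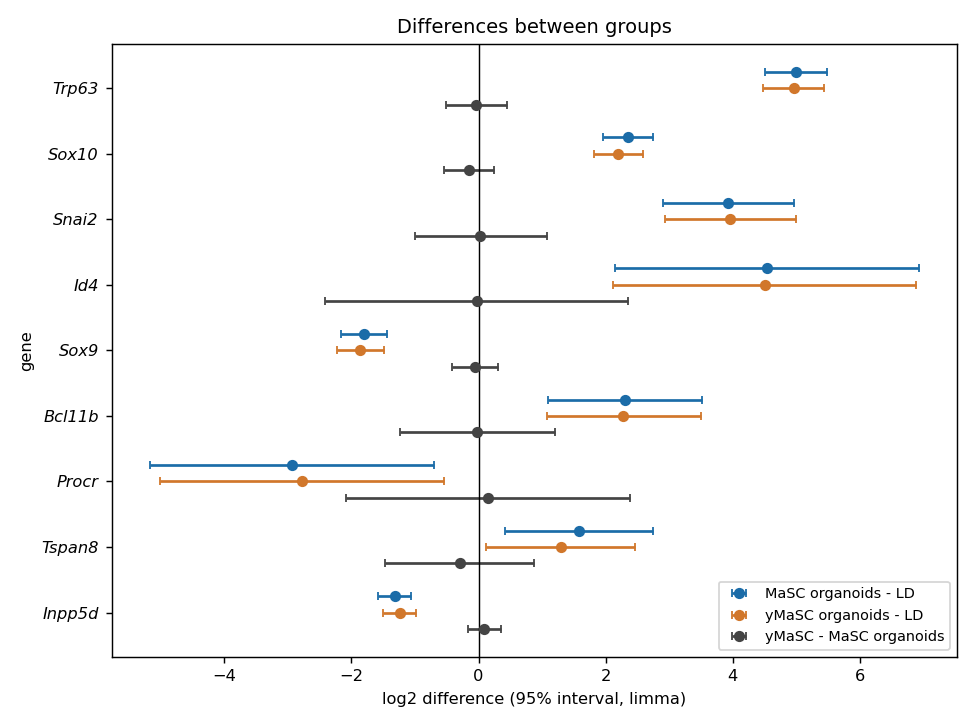
Log2 difference between groups (x axis) for the 9 genes (y axis), with 95% intervals from limma on 3 arrays a group. Both sets of organoids are shown against LD cells and against each other, and the differences between the organoids lie within 0.29 log2 of 0, with the widest intervals for Id4 and Procr.

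In several of the genes the organoid arrays differed by letter. Id4 in letter C stood above the mean of letters A and B by 3.29 log2 in organoids from MaSCs and by 2.52 log2 in organoids from yMaSCs. Bcl11b did so by 1.53 and 1.17 log2, and Tspan8 by 1.04 and 1.19 log2. These 3 of 9 genes were at least 1 log2 higher in letter C in both kinds of organoid, against 1.35% of all genes. Snai2 was higher in letter C by 1.75 and 0.62 log2, whereas Trp63 was higher by 0.76 log2 in organoids from MaSCs and differed by -0.04 log2 in those from yMaSCs. Sox10 went the other way, at -0.32 and -0.21 log2. With 1 array per letter and kind, no test was made of this pattern, and the sources used here do not say what a shared letter stands for.

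The same letter stood apart in other gene groups. Of 10 basal and myoepithelial markers, 5 were at least 1 log2 higher in letter C than in A and B in both kinds of organoid. Their median over the list read 8.25, 8.14 and 9.94 in organoids from MaSCs A, B and C and 8.49, 8.30 and 9.28 in organoids from yMaSCs. Of 7 cell cycle genes, none of which was called by limma or had an unadjusted p under 0.05 in any comparison, 5 did the same, with medians of 5.28, 4.86 and 7.54 and of 5.39, 4.88 and 7.05. Mki67, a protein of dividing cells, read 8.37 and 8.30 in the letter C organoids and 4.88 to 5.39 in the other organoids. In LD cells A, B and C it read 8.82, 6.09 and 8.36, and the median of the cell cycle genes 7.60, 5.59 and 7.21. High values were thus not limited to letter C organoids. The part of cell composition or growth state in the letter C values of Id4, Bcl11b and Tspan8 was not tested. Without both letter C organoids, the difference of Tspan8 was 1.23 log2 (limma adjusted p = 0.0833) in organoids from MaSCs and 0.89 log2 (adjusted p = 0.191) in organoids from yMaSCs.

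**Figure D5:**
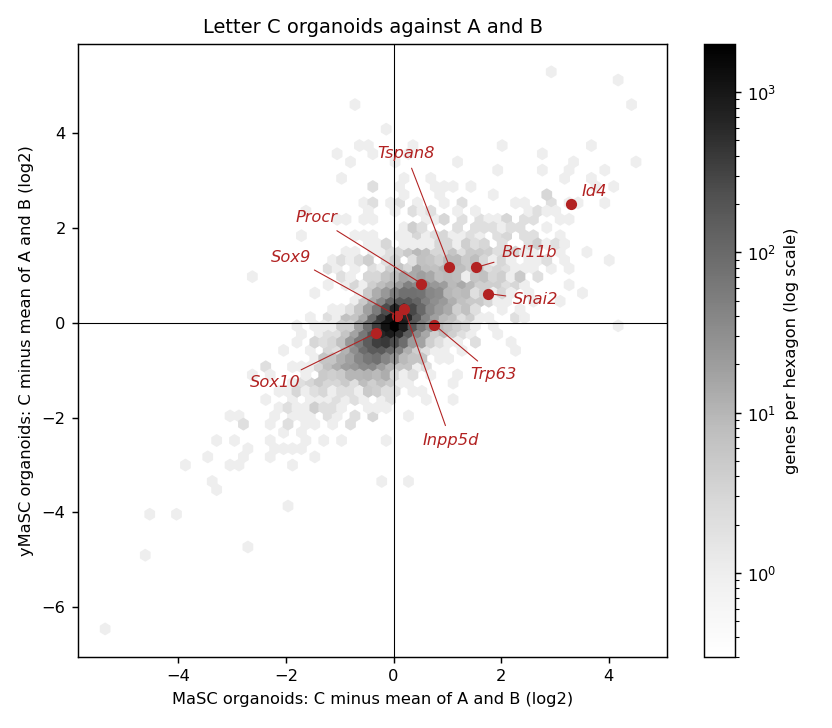
Letter C minus the mean of letters A and B (log2) in organoids from MaSCs (x axis) and in organoids from yMaSCs (y axis). Grey hexagons count all 18194 genes on a log colour scale and red points are the 9 genes. Id4, at 3.29 and 2.52, lies far out at the upper right, with Bcl11b and Tspan8 also above 1 on both axes.

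The genes around each regulator were taken from lists of its relatives, partners and targets. Over all genes, 22.0% were called higher and 15.0% lower in organoids from MaSCs, and 21.5% and 14.1% in those from yMaSCs. The counts of each list are to be read beside these shares. Of 10 basal and myoepithelial markers, 5 rose and 1 fell in organoids from MaSCs, while 5 rose in those from yMaSCs, with a median difference of 1.94 and 1.86 log2 against -0.02 and -0.01 over all genes. Oxtr, the oxytocin receptor of contracting myoepithelium, rose by 4.78 and 4.47 log2, and Mylk, a myosin kinase, by 3.70 and 3.64 log2. Acta2, smooth muscle actin, rose by 3.12 and 2.87 log2, and Krt5, a basal keratin, by 2.63 and 2.56 log2. Krt17, the marker of this list that fell, did so by 1.86 log2 in organoids from MaSCs. Its difference of -1.14 log2 in organoids from yMaSCs was not called. Of 11 luminal markers, 8 fell and 1 rose in both comparisons, with medians of -0.93 and -1.12 log2. Cldn4, a tight junction claudin, fell by 3.53 and 3.37 log2 and Esr1, the estrogen receptor, by 2.13 and 2.33 log2. Gata3, the luminal marker that rose, did so by 1.52 and 1.25 log2. Krt8, a luminal keratin, stayed bright, at 13.14 to 13.48 in organoids against 14.13 to 14.26 in LD cells. LD cells thus carried the luminal markers of their label, of which Epcam was used in the sort. Krt14, a basal keratin, read 7.27 to 8.04 in LD cells, where Trp63 was near background. The name of its probe set ends in x, so that its probes can also match other transcripts. Krt14 differed by 1.54 log2 in organoids from MaSCs (limma adjusted p = 0.0528) and rose by 1.64 log2 in those from yMaSCs (adjusted p = 0.0428).

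Genes known as p63 targets numbered 14, of which in organoids from MaSCs 2 rose and 3 fell, while 3 rose and 3 fell in those from yMaSCs, with medians of -0.07 and -0.11 log2. These shares are near those over all genes, of which 22.0% and 21.5% rose and 15.0% and 14.1% fell. Col17a1, a hemidesmosome collagen, rose by 3.41 and 3.37 log2 alongside Krt5. Fgfr2, a growth factor receptor, fell by 2.80 and 2.98 log2, and Ripk4, an epidermal kinase, by 0.80 and 0.84 log2. Of 6 p53 family members and p63 partners, 2 rose in organoids from MaSCs, Yap1 by 0.75 log2 and Itch, a ubiquitin ligase, by 0.38 log2. Only Yap1 rose in organoids from yMaSCs, by 0.65 log2. Whether its probe set also reads the lentiviral YAP was not examined.

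Of 11 other Sox factors, 3 rose and 1 fell in both comparisons, with median differences of -0.19 and -0.18 log2. Sox5 rose by 1.81 and 1.77 log2 and Sox13 by 1.77 and 1.57 log2, both of the SoxD group, and Sox8, of the SoxE group to which Sox9 and Sox10 belong, rose by 1.62 and 1.13 log2. Of the 3 SoxE factors, Sox8 and Sox10 were thus higher and Sox9 lower in both kinds of organoid. Sox18, an endothelial factor, fell by 0.54 and 0.54 log2. Among the relatives of Snai2, Snai3 fell by 0.80 and 0.63 log2 and Zeb1, another repressor of epithelial genes, by 0.58 and 0.53 log2. Of the 8 other transition factors, 2 fell in both comparisons and 1 rose in organoids from MaSCs, with median differences of -0.31 and -0.18 log2. The one that rose was Tcf4, by 0.54 log2. Snai1, Slug's nearest relative, read 3.71 to 4.35 on all arrays and was not called.

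Of the 3 other Id genes, 2 rose like Id4. Id1 rose by 2.87 and 2.96 log2 and Id2 by 1.90 and 1.85 log2, while Id3 differed by 0.37 and 0.18 log2 and was not called. Id1 differed from Id4 in the letters, since it read 9.16, 9.13 and 7.75 in organoids from MaSCs A, B and C and 9.70, 9.04 and 7.56 in organoids from yMaSCs, with letter C the lowest. The E proteins Tcf3 and Tcf12, with which Id proteins pair, were not called. With Brca1, which was listed with them and not called, the median difference over these 6 genes was 0.31 and 0.16 log2. Of 5 other zinc finger lineage factors, 1 rose and 1 fell in both comparisons, namely Bcl6, a repressor, by 1.94 and 1.73 log2, and Ikzf2, a lymphoid factor, which fell by 0.42 and 0.59 log2.

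Of 9 genes that act with Procr in coagulation or with Wnt signals, 2 rose and 4 fell in both comparisons, with median differences of -1.58 and -1.43 log2. Wnt4, a luminal Wnt ligand, fell by 3.42 and 3.34 log2, and Rspo1, a Wnt enhancer, by 3.42 and 3.60 log2. F3, tissue factor, changed by -2.71 and -2.49 log2. The R-spondin receptor gene Lgr4 rose by 2.12 and 2.03 log2. Thbd, the thrombomodulin that works beside the protein C receptor, read 4.35, 7.53 and 4.45 in LD cells A, B and C, and so shared with Procr its peak in LD cells B. Rspo1 had its lowest LD value there, at 7.97, 4.17 and 8.21. Of 9 other tetraspanins, 5 rose and 1 fell in organoids from MaSCs, while 4 rose and 2 fell in those from yMaSCs. Tspan15 rose by 1.97 and 1.77 log2 and Cd81 by 1.27 and 1.24 log2, while Tspan13 fell by 2.13 and 2.46 log2, and the tetraspanin medians were 0.41 and 0.38 log2. Among 6 phosphoinositide phosphatases related to Inpp5d, 1 rose and 1 fell in organoids from MaSCs, Inpp5e by 0.91 log2 and Inpp5j, which fell by 0.48 log2. In organoids from yMaSCs Inpp5e rose by 0.78 log2, Inpp5j fell by 0.42 log2 and Inppl1, which encodes the closest relative SHIP2, fell by 0.59 log2, with medians of -0.22 and -0.15 log2 over the phosphatases.

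Of 10 other genes linked to mammary stem cells, 2 rose and 3 fell in both comparisons, with medians of 0.24 and 0.20 log2. The share that rose was near that over all genes, as it was for the other Sox and zinc finger factors and the phosphatases. Dll1, a Notch ligand, read 5.54, 6.41 and 5.19 in LD cells and 10.39 to 11.27 in organoids, and rose by 5.19 and 5.16 log2. Peg3, an imprinted gene, rose by 2.36 and 2.20 log2. Cd44, an adhesion receptor, changed by -1.47 and -1.14 log2 and Thy1, a surface glycoprotein, by -0.71 and -0.59 log2. Of 8 luminal progenitor and alveolar regulators, 3 rose and 2 fell in both comparisons, with medians of 0.46 and 0.57 log2. Elf5, the alveolar factor, rose by 2.78 and 2.73 log2 and Tfap2c by 1.58 and 1.74 log2. Lif, a cytokine, fell by 4.72 and 4.21 log2, and Aldh1a3 changed by -2.4 and -2.35 log2. No gene of any of these lists was called by limma between the 2 kinds of organoid. An unadjusted p under 0.05 was seen there for 1 of the other Sox factors and 1 of the fibroblast markers.

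Across the 9 arrays, the genes whose profile was most like each regulator were found by the root-mean-square difference in log2 after each profile was centred on its own mean. The closest were Scd1 at 0.0827 and Ppm1k at 0.119 for Sox10, Pawr at 0.0721 and Prkcb at 0.0824 for Inpp5d, and H2-Ea at 0.114 and S1pr1 at 0.115 for Sox9. For Trp63 they were 4931406C07Rik at 0.296 and Chil1 at 0.340, for Snai2 Prtn3 at 0.293 and Gas1 at 0.316, and for Bcl11b Acox2 at 0.257 and Cda at 0.347. For Tspan8 they were Alpl at 0.201 and Mecom at 0.312. Id4 and Procr had no neighbour as near, with Wif1 at 0.590 and Myl9 at 0.757 for Id4 and Cd36 at 0.551 and Muc16 at 0.572 for Procr. Among the 9 genes themselves the nearest pair was Sox9 and Inpp5d, at 0.312, both of which fell, followed by Trp63 and Snai2 at 0.623. These distances describe 9 arrays in 3 groups and carry no test. They were not scaled and tend to be larger for genes with a wide range over the arrays. That range was 1.44 log2 for Inpp5d, 2.31 for Sox9 and 2.79 for Sox10, against 5.90 for Procr and 7.43 for Id4.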

How the data were processed

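Total RNA, extracted with Trizol and labelled with biotin, was measured on Affymetrix mouse arrays. The deposited values are log2 intensities that the authors made by RMA (version not given in the sources used here), covering 45101 probe sets, with 0 columns for other samples. Per the annotation, 34958 probe sets had 1 gene, 932 several and 9211 none, and the last groups were left out. RefSeq gene identifiers matched 34754 of the 34958 and all 9 genes. Upstream sequences and coordinates are from RefSeq (GRCm38.p6). No filter on low values was applied.

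Groups came from the labels. limma 3.58.1 in R 4.3.3 fitted all 9 arrays with no block, and was tested on simulated data. Array number, 3 a group, limits the precision. Replicates are labelled biological, with nothing on whether mice were shared, so that p-values measure the spread between these samples. No pair of arrays was identical, the highest correlation being 0.997. Letters paired the organoids: deviations from group means correlated at 0.584, 0.560 and 0.635 for letters A, B and C between the 2 kinds of organoid, and at -0.065 to 0.021 between LD cells and organoids.

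The 9 genes and 18 lists (165 entries, of which 155 were measured) were chosen with earlier results of these data known. All 9 genes are named, as are up to 4 called genes of a list, relatives and markers set beside a result, and the 2 nearest profiles of each gene. The called genes were mostly, but not always, those with the largest difference between organoids from MaSCs and LD cells. Left out were F2r, Krt19 and Egr2, at -2.18, -2.1 and -1.75 log2 in that comparison, while genes with smaller differences were named. Alternatives covered blocks by letter, probe set choice, normalization, filter, variance model, fold limit and each array left out.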

Additional observations from a re-analysis of the deposited data

How the results depend on the processing

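The count of genes called between organoids from MaSCs and LD cells was 9 and ranged from 7 to 9 over 23 alternatives, and that between organoids from yMaSCs and LD cells was 7 and ranged from 6 to 8. The count between the organoids was 0 in all 24. With each array left out in turn the counts ran from 7 to 9, from 7 to 8 and at 0. With all arrays blocked by letter (replicate block) they were 8, 8 and 0, and with the letter as a random block 9, 8 and 0. Trp63, Sox10, Snai2, Id4, Bcl11b and Sox9 kept their direction and call in both comparisons with LD cells under every alternative applied to the same probe set, and Inpp5d did wherever it was tested. It and Procr, dimmer than the median, were not tested when probe sets under the median mean were left out. Procr ranged from -4.00 to -1.60 log2 in organoids from MaSCs, with adjusted p from 0.00718 to 0.119, and from -3.85 to -1.45 log2 in organoids from yMaSCs, with adjusted p from 0.00882 to 0.151. Tspan8 ranged from 1.07 to 1.93 log2, with adjusted p from 0.00564 to 0.125, and from 0.78 to 1.64 log2, with adjusted p from 0.0138 to 0.246. Between the organoids all values stayed uncalled. Sign changes were counted only where a value was called, and 32 of 678 recomputed values changed sign between uncalled ones. Of 1260 list counts recomputed, 1196 were within 1.5 times of the reported count. The cause of the lost calls was not tested.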
